A study of Mus musculus with 4 samples.

Results

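Mucin O-glycosylation enzymes were followed in cultures of mouse colonic epithelium as 10 genes of the deposited table of 36144 gene names, chosen by symbol for the steps they carry out. They are *Galnt3*, *Galnt4* and *Galnt12*, *C1galt1* with its chaperone *C1galt1c1*, *Gcnt3*, *B3gnt7*, *Fut2*, *St6galnac1* and *B4galnt2*. All 10 symbols were found in the table. Of these, 9 had more than 10 counts in at least 2 libraries, whereas *St6galnac1* did not.

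The organoids came from the colon of a male mouse aged 24 weeks, were at passage 3 and were either left untreated or given 2 mM sodium butyrate for 48 h or 72 h. The untreated cultures are labelled day 2 and day 3. Each of the 4 conditions has 1 bulk RNA-seq library. The labels give the genotype of every library as WT, whereas the study describes the sequenced organoids as grown from a single Hes1-GFP reporter mouse, and its methods speak of such mice of both sexes. All cultures shared a crypt medium with EGF, Noggin, R-spondin and the Wnt pathway activator CHIR99021, and both treated conditions differ from their controls by butyrate alone as far as the labels say.

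Mucins are secreted or membrane-bound glycoproteins whose serine- and threonine-rich stretches carry dense O-linked sugar chains, and in the colon *Muc2* forms the gel that separates bacteria from the epithelium. Chains start when a GALNT enzyme adds N-acetylgalactosamine to the protein in the Golgi. Core enzymes then build on this sugar, branching and chain extension follow, and fucose, sialic acid or further N-acetylgalactosamine cap the ends. Butyrate is a short-chain fatty acid made by gut bacteria from fibre, which colonic epithelial cells use as fuel and which inhibits histone deacetylases.

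With butyrate, 8 of the 9 tested enzymes were lower than in untreated colonoids at both 48 h and 72 h. Of all 13977 tested genes, 31.3% were lower at both times. *Galnt3* and *Fut2* had the largest decreases at 48 h, and *Fut2* at 72 h, ahead of *C1galt1c1* and *Galnt3*, which were both at −0.51. *B3gnt7* was 3.36-fold higher at 48 h, while at 72 h its few counts did not show a difference in either direction. In 7 of the 9, both butyrate libraries lay below both untreated libraries, a pattern found in 21.7% of tested genes, and in 0 of 9 both lay above, as in 21.8%. The median log2 change of the 9 was −0.24 at 48 h and −0.33 at 72 h, beside −0.01 and 0.002 over all tested genes. For 7 of the 9 both counting intervals lay below 0, where 13.6% of tested genes had this. Taken singly, 7 intervals lay below 0 at 48 h and 8 at 72 h, beside 31.3% and 26.4% of tested genes. Among the 11648 tested genes with a mean of 50 or more normalised counts, which hold 8 of the enzymes, 32.7% were lower at both times and 15.5% had both intervals below 0. Counting intervals narrow as counts rise, and these 8 averaged between 1275 and 6282 normalised counts. The shares with intervals below 0 are thus not matched to the enzymes in depth. Most decreases were small. At least 1.5-fold lower were 2 of 9 enzymes at 48 h, where 8.9% of tested genes were, and 1 of 9 at 72 h, where 8.53% were. Among the 11648 better covered genes the shares were 6.42% and 5.13%. At the 2-fold level, 1 of 9 was higher and 0 lower at 48 h, where 6.94% and 3.08% of tested genes were, and 0 of 9 were either at 72 h, where 4.53% and 3.78% were. A single library stands behind each condition, so no difference can be set against the spread between replicate cultures, and the intervals below are 95% intervals that cover counting error only. In bulk RNA, fewer cells of a type and less RNA per cell cannot be told apart.

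**Figure D1:**
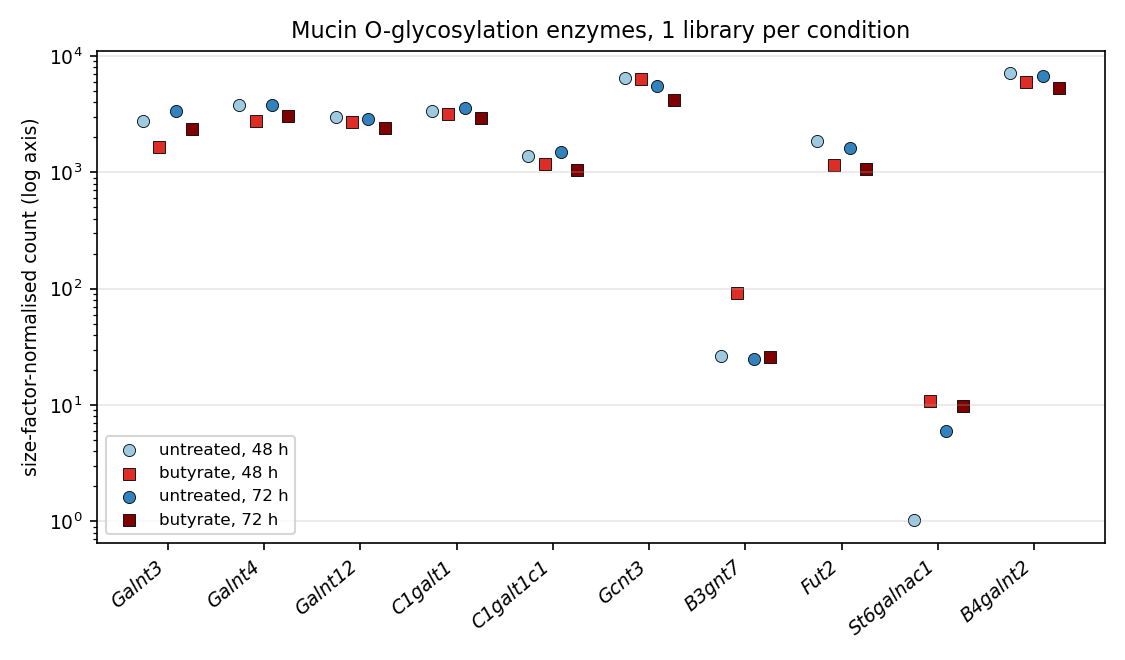
Size-factor-normalised counts of the 10 enzymes in each of the 4 libraries on a log axis, with circles for untreated and squares for butyrate-treated colonoids. *B4galnt2* lies between 5342 and 7133 in all 4 libraries, whereas *B3gnt7* stands out in the butyrate library at 48 h with 91.6 and *St6galnac1* stays at or below 10.9.

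The libraries held between 20790225 and 24207840 counts, of which mitochondrial genes took between 14.1% and 18.4%. The labelled tissue was checked against marker genes. The 8 epithelial genes, among them *Epcam* and *Cdx2*, were present in every library with summed normalised counts between 144061 and 159581. With butyrate 4 of the 8 were higher and 3 lower beyond counting error at 48 h, with a median of 0.02, and 1 was higher and 7 lower at 72 h, with a median of −0.17. Fibroblast genes summed to between 15.1 and 21.8, with *Col3a1* and *Lum* at 0 in every library, 6 immune genes to between 41.7 and 71.3, and 3 endothelial genes to between 28.1 and 53.3.

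The enzymes differed widely in level. Per kb of exon, *B4galnt2* was the highest of the 10 in every library, with between 3102 and 4142 normalised counts per kb. *Gcnt3*, with 1508, and *Galnt12*, with 1296, followed in the untreated library at 48 h, and they changed places in the butyrate library at 72 h, where *Galnt12* had 1051 and *Gcnt3* 982. *C1galt1c1* came next in all 4 libraries, between 717 and 1024 per kb. *Galnt4*, *Galnt3* and *C1galt1* were close together and changed order between libraries, so that their order was not stable over the conditions. *Fut2* was eighth in each library, between 195 and 341 per kb. With the length of the longest transcript in place of all exons, *Fut2* had 626 per kb in the untreated library at 48 h and passed *C1galt1*, which had 558. *B3gnt7* was between 5.97 and 22.2 per kb and *St6galnac1* between 0.427 and 4.55, the lowest of the 10 in all 4 libraries.

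Promoter sequence was at hand for 4 of the 10, and all 4 are shown so that enzymes with lower counts under butyrate, *Galnt3*, *C1galt1* and *B4galnt2*, can be set beside *B3gnt7*, which was higher at 48 h. The windows run from 250 bases before to 50 bases after the RefSeq transcript start in GRCm38.p6, written 5′ to 3′ on the strand of the gene. They are chr2:66124744-66125043 on the minus strand for *Galnt3*, chr6:7844974-7845273 on the plus strand for *C1galt1*, chr1:86302971-86303270 on the plus strand for *B3gnt7* and chr11:95914822-95915121 on the minus strand for *B4galnt2*. The gene positions given below come from a different annotation, GENCODE M21. By these positions the windows of *C1galt1* and *B3gnt7* lie wholly within the gene. Capitals mark matches to any of 6 motifs searched on both strands, which were GGGCGG as the GC box of Sp1 family factors, TATAAA as the TATA box, TTTATG as a core of CDX sites, CAGCTG as an E-box, CCGGAA as a core of ETS sites and CAAAGT as part of HNF4 and TCF sites.
Galnt3: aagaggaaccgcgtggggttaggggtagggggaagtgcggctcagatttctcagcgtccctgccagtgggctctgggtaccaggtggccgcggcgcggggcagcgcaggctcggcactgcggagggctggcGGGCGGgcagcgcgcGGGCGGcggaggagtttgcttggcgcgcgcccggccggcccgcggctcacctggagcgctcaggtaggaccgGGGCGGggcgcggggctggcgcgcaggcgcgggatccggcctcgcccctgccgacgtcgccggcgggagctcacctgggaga
C1galt1: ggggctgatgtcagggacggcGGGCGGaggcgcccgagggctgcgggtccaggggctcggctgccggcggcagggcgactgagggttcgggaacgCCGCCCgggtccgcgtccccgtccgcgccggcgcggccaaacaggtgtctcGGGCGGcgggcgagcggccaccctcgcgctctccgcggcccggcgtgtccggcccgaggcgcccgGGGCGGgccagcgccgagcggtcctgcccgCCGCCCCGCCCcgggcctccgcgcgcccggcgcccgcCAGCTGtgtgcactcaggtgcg
B3gnt7: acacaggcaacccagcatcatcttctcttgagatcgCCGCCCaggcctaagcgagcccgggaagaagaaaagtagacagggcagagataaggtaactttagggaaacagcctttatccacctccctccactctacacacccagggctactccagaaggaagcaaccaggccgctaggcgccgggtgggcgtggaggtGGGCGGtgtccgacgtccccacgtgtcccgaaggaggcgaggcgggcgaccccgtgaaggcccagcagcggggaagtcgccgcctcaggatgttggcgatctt
B4galnt2: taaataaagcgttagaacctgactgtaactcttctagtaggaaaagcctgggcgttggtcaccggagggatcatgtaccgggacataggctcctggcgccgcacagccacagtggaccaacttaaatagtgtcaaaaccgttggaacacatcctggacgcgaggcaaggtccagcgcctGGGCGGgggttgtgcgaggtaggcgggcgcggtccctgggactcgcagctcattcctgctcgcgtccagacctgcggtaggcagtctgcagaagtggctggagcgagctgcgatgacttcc

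All 4 windows held the GC box, with 3 matches in *Galnt3*, 6 in *C1galt1*, 2 of them overlapping, 2 in *B3gnt7* and 1 in *B4galnt2*. The same letters occur in 35.7% of the 32851 promoter windows of the reference. CAGCTG was found once, in *C1galt1*, and occurs in 16.3% of windows. The other 4 motifs, which occur in between 11.9% and 14.9% of windows, had no match in the 4 printed ones. The windows of *C1galt1* and *Galnt3* were rich in G and C, at 82.7% and 76.7%, and those of *B3gnt7* and *B4galnt2* had 62.0% and 59.0%, beside a median of 52.7% over all windows. The GC box was thus present in all 4 windows, among them that of *B3gnt7*, which was higher at 48 h only. A match describes the letters only, and its part in the changes was not tested.

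The first 3 enzymes start the chain. *Galnt3* is on chromosome 2 from 66082766 to 66124994 (GRCm38) and belongs to the family of polypeptide N-acetylgalactosaminyltransferases. Its normalised count was 2788 without and 1664 with butyrate after 48 h, then 3386 without and 2379 with it after 72 h. Both butyrate libraries were thus below both untreated libraries. Its level with butyrate was 59.7% of untreated at 48 h and 70.3% at 72 h, log2 changes of −0.74 (−0.83 to −0.66) and −0.51 (−0.59 to −0.43). The decrease was smaller at 72 h by 0.24 (0.12 to 0.35). *Galnt3* was also the only tested enzyme of the 10 whose level was higher at 72 h than at 48 h beyond counting error in untreated cultures, by 0.28 (0.21 to 0.35).

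*Galnt4*, on chromosome 10 from 99108159 to 99113247, encodes a family member that acts mainly on peptides that already carry sugar. Its normalised count was 3823 without and 2777 with butyrate after 48 h, then 3818 without and 3037 with it after 72 h. The untreated libraries were thus nearly level and both butyrate libraries lower. The log2 changes were −0.46 (−0.53 to −0.39) and −0.33 (−0.40 to −0.26). Its single annotated exon overlaps exons of *Poc1b* on the same strand, so that reads may have been shared between both genes by the pseudoalignment. *Poc1b*, a centriole gene, changed by −0.25 (−0.37 to −0.13) at 48 h and −0.02 (−0.14 to 0.10) at 72 h.

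*Galnt12*, on chromosome 4 from 47091909 to 47123070, is a family member known for its expression in the colon. Its normalised count was 2965 without and 2717 with butyrate after 48 h, then 2865 without and 2405 with it after 72 h. Here too the butyrate libraries were the lower ones, though by less. On the log2 scale it differed by −0.13 (−0.20 to −0.05) after 48 h and by −0.25 (−0.33 to −0.17) after 72 h.

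Together, *Galnt3*, *Galnt4* and *Galnt12* made up 46.5% of the summed level per kb of the 19 *Galnt* genes without and 42.6% with butyrate after 48 h, then 46.6% without and 45.6% with it after 72 h. Within the family, the share of *Galnt3* was 11.0% without and 7.67% with butyrate after 48 h, then 13.0% without and 11.3% with it after 72 h. By exon length the share of *Galnt12* was the largest in all 4 libraries and reached 23.9% with butyrate after 48 h. With the longest transcript as length *Galnt7* was above *Galnt12* in all 4, as with 24.5% and 21.4% in that library.

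Core 1 is made by *C1galt1*, the T-synthase that adds galactose to the first sugar, and its folding depends on the chaperone Cosmc, which *C1galt1c1* encodes. *C1galt1*, on chromosome 6 from 7844842 to 7875687, had a normalised count of 3397 without and 3153 with butyrate after 48 h, then 3553 without and 2930 with it after 72 h. The difference at 48 h was among the smallest of the 9 enzymes, at −0.11 (−0.18 to −0.04), and reached −0.28 (−0.35 to −0.21) at 72 h. *C1galt1c1*, on chromosome X from 38630785 to 38635087, had 1394 without and 1183 with butyrate after 48 h, then 1484 without and 1039 with it after 72 h. Its changes were −0.24 (−0.35 to −0.13) and −0.51 (−0.63 to −0.40), and the intervals of both genes overlapped at 48 h but not at 72 h. For both genes the decrease was larger at 72 h than at 48 h, by −0.17 (−0.27 to −0.07) for *C1galt1* and by −0.28 (−0.44 to −0.12) for *C1galt1c1*.

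*Gcnt3*, on chromosome 9 from 70031496 to 70038088, adds the branching N-acetylglucosamine of core 2 and core 4 chains. Its normalised count was 6487 without and 6338 with butyrate after 48 h, then 5489 without and 4222 with it after 72 h. The libraries at 48 h did not differ beyond counting error, with a change of −0.03 (−0.08 to 0.02), whereas at 72 h the change was −0.38 (−0.44 to −0.32). The butyrate library at 48 h was higher than the untreated library at 72 h, so that treated and untreated libraries overlapped. The effects at the 2 times differed by −0.35 (−0.42 to −0.27). Without butyrate *Gcnt3* was also lower at 72 h than at 48 h, by −0.24 (−0.29 to −0.19).

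*B3gnt7*, on chromosome 1 from 86302832 to 86307305, encodes an N-acetylglucosaminyltransferase that extends chains of repeating lactosamine units. Counts were few, 26 without and 101 with butyrate after 48 h, then 25 without and 24 with it after 72 h. The butyrate library at 48 h stood apart from the other 3, which hardly differed. Normalised counts were 26.6, 91.6, 24.7 and 25.9 in the same order. The log2 change was 1.75 (1.15 to 2.47) at 48 h, where 13.1% of tested genes were at least 1.5-fold higher. At 72 h it was 0.07 (−0.80 to 0.94), an interval too wide at these counts to tell a rise from a fall. The effect at 72 h was lower than that at 48 h by −1.68 (−2.70 to −0.66). An antisense gene, *Gm28626*, overlaps its exons, and the sources used here do not state whether the counting used strand.

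Among 10787 other genes averaging 100 or more normalised counts, those whose profile over the 4 libraries came closest to *B3gnt7* were *Xlr3a*, *Cox7a1* and *Tm4sf5*, with root mean square distances of 0.0800, 0.0812 and 0.0930 on the log2 scale. Picked for this likeness, each of them was high in the butyrate library at 48 h and level in the other 3. *Tm4sf5* had normalised counts of 160 without and 634 with butyrate after 48 h, then 173 in both libraries after 72 h. *B3gnt7* itself averaged 42.2, below the limit set for the others, and its counting error was not part of the distances.

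The ends of the chains are capped by the last 3 enzymes. *Fut2*, on chromosome 7 from 45648591 to 45666394, adds the α1,2-linked fucose of the H antigen to secreted and surface glycans. Its normalised count was 1851 without and 1155 with butyrate after 48 h, then 1615 without and 1062 with it after 72 h. Both butyrate libraries were well below both untreated libraries. The level with butyrate was 62.4% of untreated at 48 h and 65.7% at 72 h, and the log2 changes were −0.68 (−0.78 to −0.58) and −0.61 (−0.72 to −0.49). *Fut2* was the only one of the 9 that was at least 1.5-fold lower at both times, as were 2.73% of tested genes. Scaling to total counts gave −0.55 at 72 h, short of 1.5-fold. The effects at the 2 times did not differ beyond counting error, at 0.07 (−0.08 to 0.23). Over the 4 libraries the closest profiles were those of *Mxd1*, *Ocel1* and *Fgfr4*, with distances of 0.0278, 0.0433 and 0.0448.

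*B4galnt2*, on chromosome 11 from 95865943 to 95914891, adds the terminal N-acetylgalactosamine of the Sd(a) antigen, a glycan of colonic mucus. Its normalised count was 7133 without and 5934 with butyrate after 48 h, then 6720 without and 5342 with it after 72 h. The log2 changes were −0.27 (−0.31 to −0.22) and −0.33 (−0.38 to −0.28), and the effects at the 2 times differed by −0.07 (−0.14 to 0.01). The exons overlap the antisense gene *Gm11534*. *B4galnt2* stayed the most abundant of the 10 per kb, at 12.2 times *Fut2* without and 16.2 times with butyrate after 48 h, then 13.1 times without and 15.9 times with it after 72 h. With the longest transcript as length these ratios were 6.61, 8.82, 7.14 and 8.63 in the same order.

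*St6galnac1*, on chromosome 11 from 116765025 to 116775507, attaches sialic acid to the first sugar and so makes sialyl-Tn. It was barely detected, with counts of 1 without and 12 with butyrate after 48 h, then 6 without and 9 with it after 72 h. Without a pseudocount the log2 ratio came to 3.41 (0.66 to 8.83) after 48 h, and after 72 h to 0.71 (−0.94 to 2.49). The floor of 3 counts corresponds to between 2.72 and 3.24 normalised counts in the 4 libraries, and the untreated library at 48 h was below it.

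**Figure D2:**
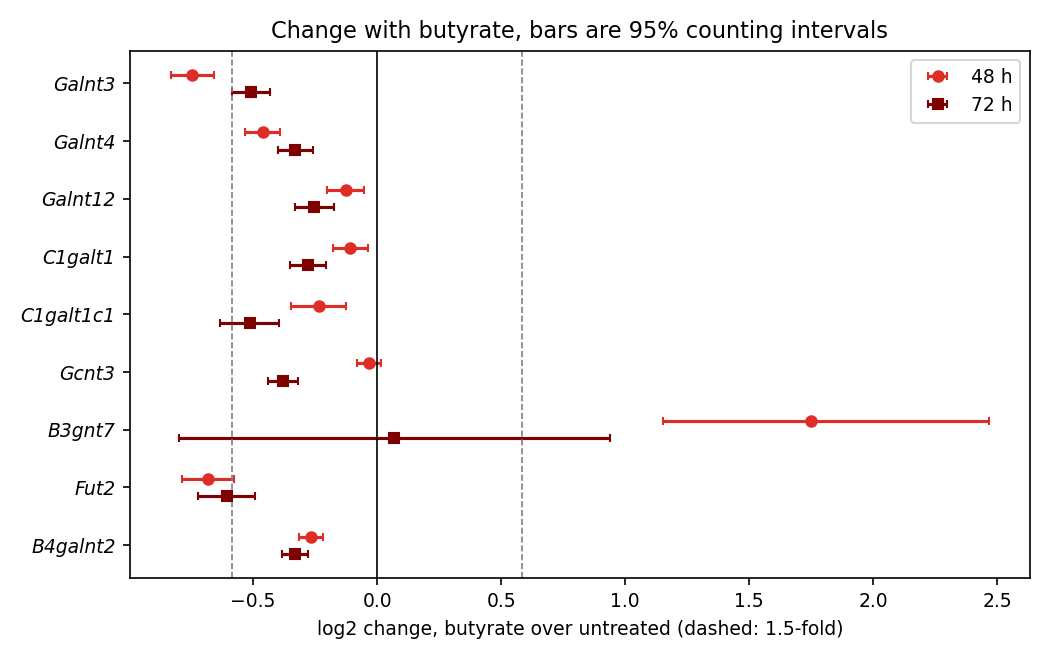
Log2 change of butyrate over untreated for the 9 tested enzymes at 48 h (circles) and 72 h (squares), with 95% counting intervals and dashed lines at 1.5-fold. *Fut2* lies left of the dashed line at both times, at −0.68 and −0.61, and *B3gnt7* at 48 h is the sole point right of it, at 1.75.

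Over time without butyrate, the median change of the 9 enzymes from 48 h to 72 h was −0.05, with a range of −0.24 to 0.28. Scaling to total counts gave a median of −0.13. With size factors, 0 of 9 changed at least 1.5-fold in either direction, where 6.82% of tested genes were higher and 5.17% lower by as much. With butyrate the median was −0.15. Here 2 of 9 were at least 1.5-fold lower at 72 h, *Gcnt3* at −0.59 and *B3gnt7* at −1.78, where 11.9% of tested genes were. *Gcnt3* is at the threshold and was short of it with TMM factors, at −0.58. In the other direction, 0 were higher by as much, where 9.67% were. Only *B3gnt7* was 2-fold lower, as were 4.95% of tested genes. *Galnt3* was higher by 0.52 (0.43 to 0.61). These comparisons share libraries with those of butyrate against untreated.

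The wider pathway was described with a list of 70 further genes of O-glycan assembly, 58 of which passed the count filter. The 12 that did not had at most 19 counts in any library, among them *Galnt13*, *Galnt14* and *St6galnac3*. Of the 58, 9 were at least 1.5-fold higher and 5 lower after 48 h of butyrate, where 13.1% and 8.9% of all tested genes were. After 72 h, 6 were higher and 11 lower, where 9.5% and 8.53% of tested genes were, and scaling to total counts left 6 higher and 7 lower. The median was −0.07 at 48 h and −0.28 at 72 h. Of the 58, 32 were lower at both times and 12 higher at both, where 31.3% and 30.4% of tested genes were, and 14 had opposite signs. In 29 of the 58 both butyrate libraries lay below both untreated libraries, and in 10 both lay above, beside 21.7% and 21.8% of tested genes. Opposite signs with both intervals excluding 0 were found in 3 of the 58 and in 0 of the 9 enzymes, beside 9.87% of tested genes.

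In the direction opposite to most of the enzymes, 4 of the 58 tested genes of the wider list were at least 1.5-fold higher at both times, beside 5.51% of all tested genes. All 4 averaged at least 50 normalised counts. *B3gnt6*, the core 3 synthase typical of colonic mucin, had a normalised count of 184 without and 306 with butyrate after 48 h, then 119 without and 367 with it after 72 h. Its log2 changes were 0.73 (0.47 to 1.00) and 1.61 (1.32 to 1.93). Core 3 and core 1 enzymes act on the same first sugar, and the ratio of *B3gnt6* to *C1galt1* per kb was 0.139 (0.119 to 0.162) without and 0.249 (0.222 to 0.279) with butyrate after 48 h. After 72 h it was 0.0864 (0.0715 to 0.104) and 0.322 (0.287 to 0.361). *C1galt1* thus remained the more abundant of the pair in every library.

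*B4galnt4*, which adds N-acetylgalactosamine to terminal N-acetylglucosamine, changed by 1.31 at 48 h and 0.63 at 72 h. *St6galnac4*, a sialyltransferase that acts on sialylated core 1, changed by 1.28 and 0.82. *Cmah*, which converts the activated sialic acid Neu5Ac to Neu5Gc, changed by 1.27 and 0.78. All 3 had intervals above 0 at both times and smaller changes at 72 h.

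At least 1.5-fold lower at both times were 2 of the 58, *A4gnt* and *Galnt5*, beside 2.73% of all tested genes. *A4gnt*, which caps chains with α1,4-linked N-acetylglucosamine and is best known from the stomach, had a normalised count of 868 without and 217 with butyrate after 48 h, then 532 without and 255 with it after 72 h. Its log2 changes were −2.00 (−2.21 to −1.79) and −1.06 (−1.29 to −0.84). *Galnt5* had 620 without and 258 with butyrate after 48 h, then 614 without and 346 with it after 72 h, with changes of −1.26 and −0.83.

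Among the other *Galnt* genes, 10 of 16 were tested. The most abundant by count, *Galnt7*, had between 5443 and 6193 normalised counts and changed by −0.05 and −0.19. *Galnt1* changed by −0.75 and −0.45, close to *Galnt3* at each time. *Galnt6* changed by 0.34 (0.26 to 0.42) at 48 h and by −0.36 (−0.45 to −0.28) at 72 h. Of these 10, 5 were higher and 5 lower at 48 h, and 2 were higher and 8 lower at 72 h. Initiating enzymes thus did not all move in one direction, though most were lower at 72 h. Of the other capping genes *Fut4*, a fucosyltransferase, changed by −0.49 (−0.70 to −0.28) and −0.11 (−0.35 to 0.12). Among sulfotransferases, *Chst4* changed by −0.06 (−0.22 to 0.10) and −0.12 (−0.29 to 0.04), *Gal3st2* by 1.04 and −2.40, and *Chst2*, with few counts, by 0.32 (−0.72 to 1.44) and −0.59 (−1.93 to 0.57).

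Sugar nucleotide supply was the group with the most tested genes, and 15 of its 20 were lower at both times, beside 31.3% of all tested genes. The median was −0.15 at 48 h and −0.33 at 72 h. Its most abundant genes were *Gfpt1*, the entry enzyme of hexosamine synthesis, with −0.13 and −0.36, *Papss2*, which makes the sulfate donor, with 0.40 and 0.08, and *Gne*, which starts sialic acid synthesis, with −0.51 and −0.41. Among sialyltransferases *St3gal4* changed by −0.45 and −0.91, *St6galnac2* by −0.45 and −0.05, and *St6galnac6* by −0.16 and −0.60. In chain extension *B3gnt3* changed by −0.14 and −0.37, *B4galt1* by 0.19 and 0.13, and *B3galt5* by 0.08 and −0.94. Of the branching enzymes, *Gcnt1* changed by 0.75 at 48 h and −0.01 at 72 h, and *Gcnt4* by −0.38 and −0.67.

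**Figure D3:**
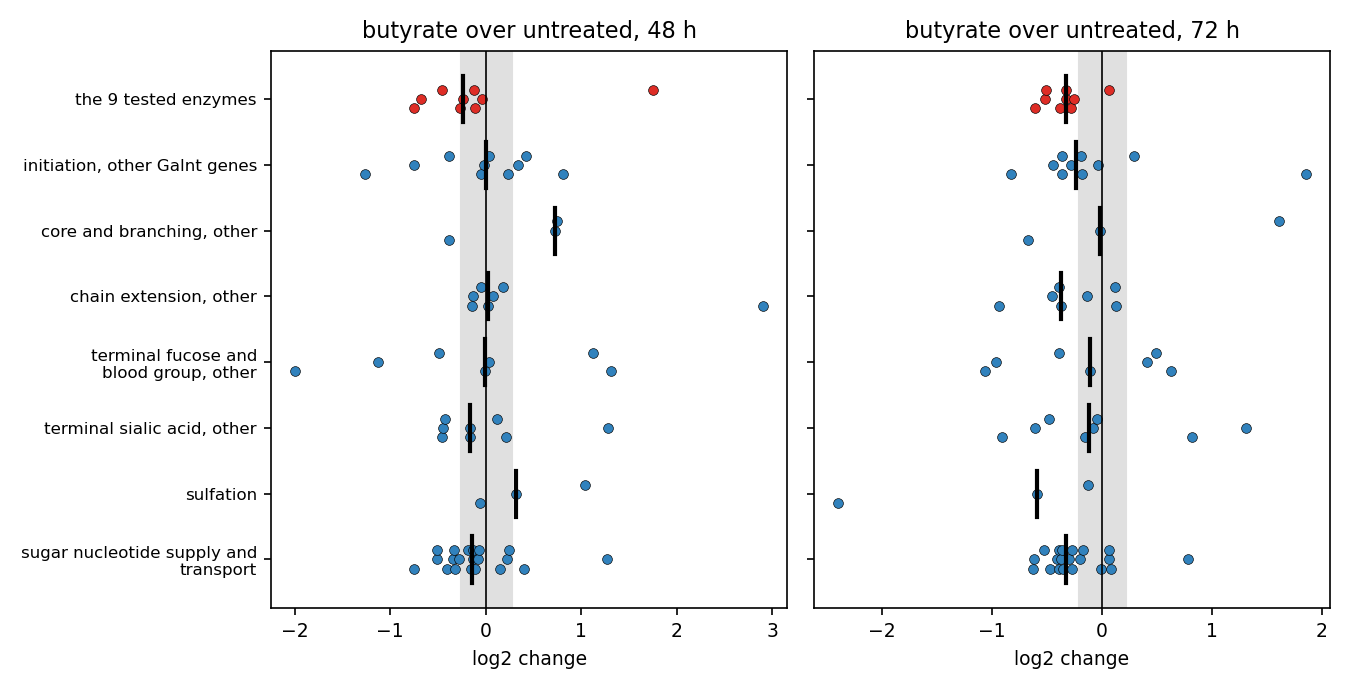
Log2 change of butyrate over untreated at 48 h (left) and 72 h (right) for the 9 tested enzymes (red) and the 58 tested genes of the wider list (blue) by role, with a black bar at each group's median and the middle 50% of all tested genes shaded (−0.26 to 0.28 at 48 h and −0.21 to 0.21 at 72 h). At 72 h the red points other than *B3gnt7* lie left of the shaded band.

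**Figure D4:**
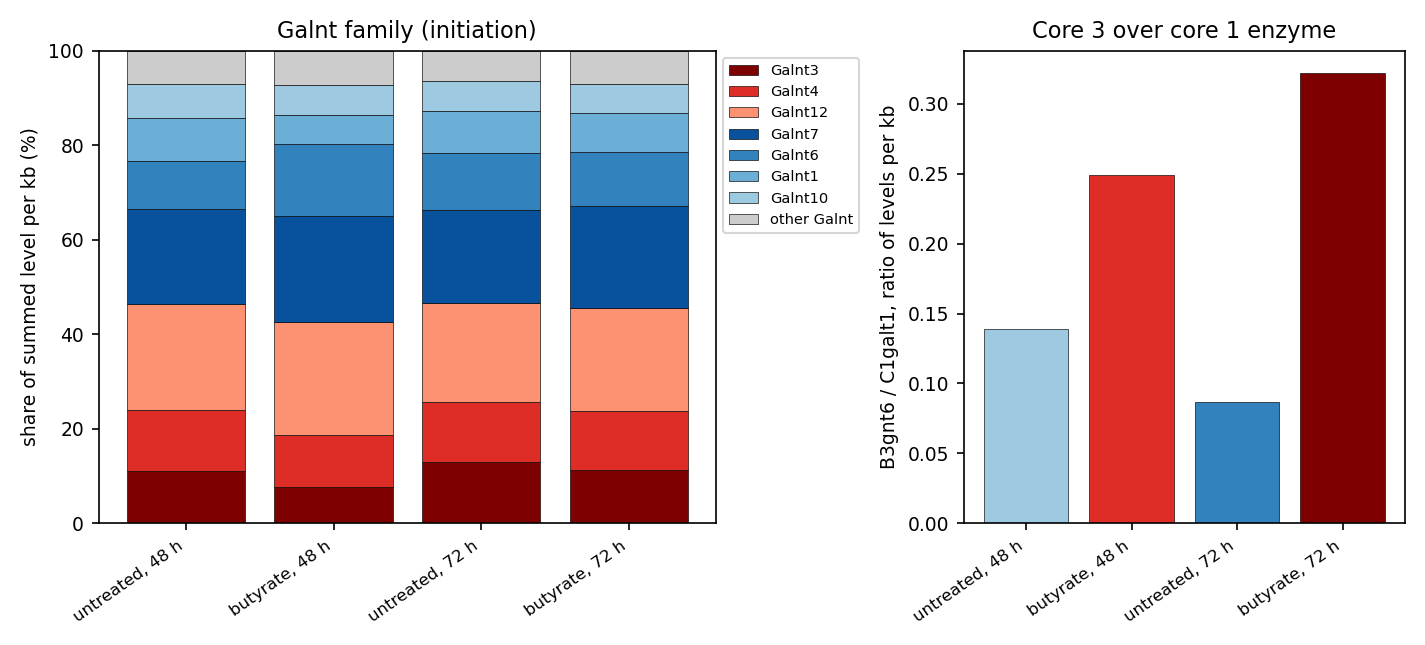
Left, shares of the *Galnt* genes in the summed level per kb of the 19 *Galnt* genes, by library, with *Galnt3*, *Galnt4* and *Galnt12* in red shades, 4 other abundant ones in blue shades and the rest in grey. Right, ratio of *B3gnt6* to *C1galt1* per kb, which was 0.139 without and 0.249 with butyrate after 48 h, then 0.0864 without and 0.322 with it after 72 h.

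Markers of the cells that make mucin differed too. Of 8 goblet cell genes, 5 were lower and 2 higher beyond counting error with butyrate at 48 h, with a median of −0.40, and 8 of 8 were lower at 72 h, with a median of −0.83. None of the 8 was at 0 in a library, and they summed to 113690 normalised counts without and 90794 with butyrate after 48 h, then to 167207 without and 89697 with it after 72 h. The sum is dominated by *Muc2*, the main protein these enzymes decorate, which had 73062 without and 52053 with butyrate after 48 h, then 119430 without and 65482 with it after 72 h. Without *Muc2* the other 7 summed to 40628 and 38741, then to 47777 and 24216. The *Muc2* transcript differed by −0.49 (−0.51 to −0.47) and −0.87 (−0.88 to −0.85) on the log2 scale. In untreated cultures *Muc2* was higher at 72 h than at 48 h by 0.71, whereas *Galnt3*, with the largest increase of the 9 tested enzymes between the same libraries, was higher by 0.28. Of 8 colonocyte genes, which mark the absorptive cells, 6 were higher and 1 lower beyond counting error at 48 h, and 1 was higher and 6 lower at 72 h, with medians of 0.65 and −0.44 and sums of 31986 and 62956, then 49032.5 and 30004.5. Of 5 stem cell genes, among them *Lgr5*, 4 were lower and 1 higher beyond counting error at 48 h, with a median of −0.31. At 72 h, 4 were higher beyond counting error, with a median of 0.70. They summed to 18204 and 13277 without and with butyrate after 48 h, then to 12746 and 20830 after 72 h. Of 5 enteroendocrine genes, 1 was higher and 1 lower beyond counting error at 48 h, with a median of 0.04, and 5 of 5 were lower at 72 h, with a median of −0.81. Of 4 tuft cell genes, 0 differed beyond counting error at 48 h, with a median of −0.24, and 4 of 4 were lower at 72 h, with a median of −1.32. Of 4 deep crypt secretory and Paneth cell genes, 2 were higher and 1 lower beyond counting error at 48 h, with a median of 0.05. At 72 h, 3 were higher and 0 lower, with a median of 0.10. Single genes moved further, as *Mmp7* with −0.61 at 48 h and *Reg4* with 1.06 at 72 h. Of the membrane-bound mucins, 4 of 4 tested were higher at 48 h, whereas 2 were higher and 2 lower at 72 h. *Muc13*, the most abundant, changed by 0.07 and −0.12 and *Muc3* by 0.18 and −0.22, while *Muc1*, at 1.48 and 1.43, and *Muc4*, at 0.33 and 0.67, were higher at both times. The part of any of these cell types in the enzyme levels was not tested.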

How the data were processed

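Poly-A-selected RNA from 4 colonoid cultures was sequenced in bulk at a core facility. The authors deposited whole-number counts per gene, which per the labels come from kallisto 0.44.0 on GRCm38.p6 with gene totals from tximport. The counts are thus rounded estimates, without normalisation or filter. The study's filter (more than 10 counts in at least 2 libraries) kept 13979 rows, of which 13977 had a unique name. Another 26 rows carry dates in place of symbols.

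Counts were scaled with DESeq2 1.42.0 size factors in R 4.3.3, and log2 changes were taken after adding a pseudocount of 1. Intervals came from the exact Clopper-Pearson interval on each pair of counts without the pseudocount, and those of differences between times from a normal approximation on the 4 counts. No molecular identifiers were used, and PCR copies are not separate molecules, so both the intervals and the 3-count floor describe counting error alone. With 1 library per condition no p-values were computed, and a change of at least 1.5-fold was counted beside the same count over all tested genes. Exon lengths and positions came from GENCODE M21 (GRCm38), promoter sequences from RefSeq. Scripts ran in Python 3.11.15 and were tested on simulated data.

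All 10 enzymes were described. From the wider list, genes changed at least 1.5-fold in the same direction at both times and averaging 50 or more normalised counts were named, and otherwise up to 3 per role with the highest mean. The genes most alike in profile were taken for the enzymes with the largest mean rise and fall. The enzymes, lists and rules were chosen with earlier results of these data known. Alternatives were edgeR 4.0.16 TMM factors, scaling to total or nuclear-gene counts, a pseudocount of 5, other count filters, a 2-fold threshold and the longest transcript as length.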

Additional observations from a re-analysis of the deposited data

Results flagged for a closer look

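With 1 library per condition, differences between 48 h and 72 h were not tested against replicate cultures. In 9.87% of tested genes the sign of the butyrate change turned between the times and both intervals excluded 0, and 0 of the 9 tested enzymes were among them. The wider list held 3 such genes. *Galnt6* had a log2 change of 0.34 at 48 h and −0.36 at 72 h. *Gal3st2*, a sulfotransferase with between 6 and 80 counts, changed by 1.04 and −2.40. *Abo*, the blood group transferase with between 16 and 58 counts, changed by 1.13 and −0.96. The choice to name *Abo* came after seeing its values. The median of the colonocyte genes turned likewise, from 0.65 after 48 h to −0.44 after 72 h. That of the stem cell genes, from −0.31 to 0.70, did so too.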

How the results depend on the processing

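All alternatives were listed with earlier results of these data known, and none was added later. No paired analysis was made, because the labels give no replicate within a condition whose number could pair libraries. A model of treatment plus time, which would take both times as replicates of the treatment, was not run. Every tested enzyme kept the direction of its butyrate change at both times under the other scalings and a pseudocount of 5. The counts of enzymes past the fold rest on few genes near the threshold. With total count scaling 0 of 9 instead of 1 were at least 1.5-fold lower at 72 h, 7 genes of the wider list instead of 11, and the median change of the enzymes over time without butyrate was −0.13. From 48 h to 72 h with butyrate, 1 enzyme instead of 2 was lower with TMM factors, with nuclear-gene scaling, among genes averaging 50 or more normalised counts and with a 2-fold threshold. Without a count filter *St6galnac1* enters, with between 1 and 12 counts. Then 2 enzymes instead of 1 were higher at 48 h, 1 instead of 0 at 72 h and 1 instead of 0 over time without butyrate. The intervals of *St6galnac1* at 72 h and over time without butyrate include 0, and the shares over all genes without the filter are not given. Of the wider list, 10 genes were then lower at 48 h and 10 higher at 72 h. With a mean of at least 50 *B3gnt7* drops out and 0 enzymes were higher at 48 h. At 2-fold, 0 enzymes were lower at 48 h and 0 at 72 h, and of the wider list 3 were lower at 48 h, 3 higher at 72 h and 2 lower at 72 h. Depth limits *B3gnt7* and *St6galnac1* most.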
